A study of Mus musculus with 4 samples.

Results

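The genes described here are Zfx and Zfp711 on the X chromosome and Zfy1 and Zfy2 on the Y chromosome, the mouse family of ZFX/ZFY zinc-finger transcription factors. They were chosen by name, with earlier results of these data known, and all 4 were among the 15733 protein-coding genes of the deposited table. All 4 also passed the filter on low counts, as did 13793 of the 15733 genes. The mRNA was sequenced from pachytene spermatocytes of mouse testis, sorted by flow cytometry on Hoechst staining after dissociated testicular cells had been cultured outside the animal for 12 h. The cells were treated with 2.5 µM BMH21, a DNA-intercalating compound that blocks transcription by RNA polymerase I, or with DMSO alone (mock). Each group had 2 libraries, stated to be biological replicates. The labels used here give no strain, genotype or age, and do not say whether animals were pooled.

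Zinc-finger proteins of this family bind DNA through a long C-terminal array of C2H2 fingers and activate transcription through an acidic N-terminal domain. ZFX is widely expressed and acts in the self-renewal of stem cells, and ZFP711 is a close relative whose human counterpart is linked to intellectual disability. In male meiosis the largely unsynapsed X and Y chromosomes are silenced at pachytene within the sex body (meiotic sex chromosome inactivation). In the mouse, Zfy1 and Zfy2 are known to kill pachytene spermatocytes when they escape that silencing, and Zfy2 is normally transcribed again in spermatids.

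The transcripts of the family are alike enough that reads can be hard to assign, so their sequences are given first. The stretches below are the 150 coding bases that end with the last zinc finger of each gene, read from GENCODE M21 transcripts. Capitals mark bases that differ from Zfy1.
Zfy1: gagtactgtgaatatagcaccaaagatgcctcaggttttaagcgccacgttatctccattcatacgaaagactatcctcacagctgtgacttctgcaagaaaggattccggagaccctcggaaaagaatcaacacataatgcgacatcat
Zfy2: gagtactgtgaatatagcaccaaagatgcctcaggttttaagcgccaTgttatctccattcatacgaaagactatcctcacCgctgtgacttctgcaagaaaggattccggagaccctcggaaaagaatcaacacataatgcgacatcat
Zfx: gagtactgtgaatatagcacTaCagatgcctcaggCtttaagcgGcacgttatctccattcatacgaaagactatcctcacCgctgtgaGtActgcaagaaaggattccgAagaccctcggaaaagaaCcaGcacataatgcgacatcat
Zfp711: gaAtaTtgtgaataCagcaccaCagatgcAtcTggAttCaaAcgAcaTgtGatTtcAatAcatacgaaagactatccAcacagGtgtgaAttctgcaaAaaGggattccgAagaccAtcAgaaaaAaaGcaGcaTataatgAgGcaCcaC
In this stretch Zfy2 differed from Zfy1 at 2 positions, Zfx at 10 and Zfp711 at 31. Over the whole coding sequence Zfy1 and Zfy2 were 96.6% identical. Zfx was 77.4% identical to Zfy1 and 76.9% to Zfy2, and Zfp711 was 62.2% identical to Zfx. The open reading frames held 799 codons in Zfx, 805 in Zfp711, 782 in Zfy1 and 777 in Zfy2. A search for the C2H2 pattern in the translated frames found 13 fingers in Zfx, 13 in Zfy1, 12 in Zfy2 and 11 in Zfp711.

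**Figure D1:**
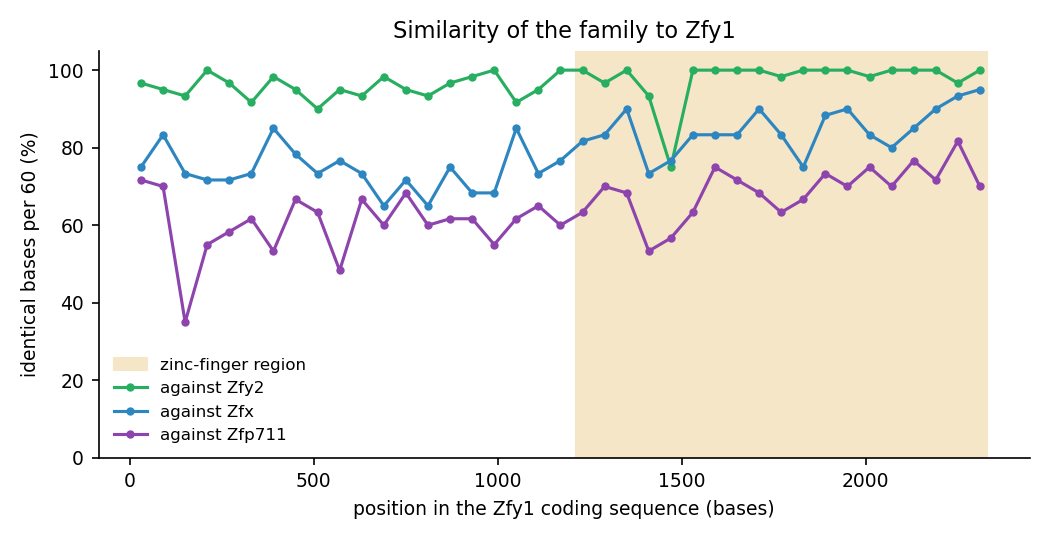
Percentage of identical bases in successive 60-base windows of the Zfy1 coding sequence (x axis, position in bases) aligned to Zfy2, Zfx and Zfp711; the shaded band is the zinc-finger region. Zfy2 is highest and Zfx lies between it and Zfp711 in all windows but 1, inside the zinc-finger region, where Zfy2 falls to 75.0% and Zfx is at 76.7%.

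Near identity did not extend over every read-sized stretch. Of all 50-base stretches in Zfy1 transcripts 42.9% also occurred in Zfy2, and of those in Zfy2 transcripts 40.2% occurred in Zfy1. At 100 bases the shares were 26.7% and 25.4%, and at 150 bases 14.6% and 14.1%. No 50-base stretch of Zfp711 occurred in another gene. Of the 50-base stretches of Zfx, 12.9% occurred in the processed pseudogene Zfa-ps and 5.99% in the antisense gene Gm14798, which covers 513 of the 7755 exonic bases of Zfx; neither gene was analysed here. The read length, the strand setting and the treatment of multiply mapped reads are not stated in any source used here. The division of reads between Zfy1 and Zfy2 is therefore uncertain, and so is that between Zfx and its antisense gene and pseudogene, with 17.7% of its 50-base stretches shared. The level, rank and fold change of Zfx carry this uncertainty.

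The transcription start regions of Zfx, Zfy1 and Zfy2 shared little with one another. Sequences from 250 bases before to 50 bases after the start are given from RefSeq (GRCm38.p6), and Zfp711 has no sequence shown. They are shown because the 3 genes rose together. Capitals mark motif matches, here only GGGCGG in Zfx and CCAAT in Zfy2.
Zfx, chrX:94123358-94123657, minus strand: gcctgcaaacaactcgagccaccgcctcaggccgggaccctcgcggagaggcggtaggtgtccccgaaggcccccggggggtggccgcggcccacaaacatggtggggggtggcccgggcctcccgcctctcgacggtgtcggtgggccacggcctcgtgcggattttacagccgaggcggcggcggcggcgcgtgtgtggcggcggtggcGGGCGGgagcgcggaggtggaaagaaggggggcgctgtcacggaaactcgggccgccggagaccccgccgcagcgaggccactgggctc
Zfy1, chrY:797360-797659, minus strand: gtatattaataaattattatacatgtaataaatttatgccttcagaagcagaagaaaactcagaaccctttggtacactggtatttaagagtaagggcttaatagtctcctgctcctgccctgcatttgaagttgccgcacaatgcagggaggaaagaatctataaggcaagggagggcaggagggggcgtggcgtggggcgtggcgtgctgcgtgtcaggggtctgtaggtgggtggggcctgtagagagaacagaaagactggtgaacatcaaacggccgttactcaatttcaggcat
Zfy2, chrY:2170360-2170659, minus strand: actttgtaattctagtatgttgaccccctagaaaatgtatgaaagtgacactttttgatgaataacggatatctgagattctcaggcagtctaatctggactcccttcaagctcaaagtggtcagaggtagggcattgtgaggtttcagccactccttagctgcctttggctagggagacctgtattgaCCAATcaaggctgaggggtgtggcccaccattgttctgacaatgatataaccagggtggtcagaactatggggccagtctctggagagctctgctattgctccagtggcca
The Zfx window held 39 CpG dinucleotides and 75.3% G or C. The Zfy1 window held 8 CpGs and 47.7% G or C, and the Zfy2 window 1 CpG and 47.3% G or C. A further start of Zfx, at chrX:94123718-94124017, held 5 CpGs, 40.0% G or C and CCAAT at 2 places. Zfy1 and Zfy2, nearly identical in their coding sequence, were 47.0% identical in these windows. Either of them was 42.2% to 45.9% identical to the windows of Zfx, and the 2 Zfx windows were 37.2% identical to each other. Gaps were allowed and unrelated windows were not compared, so these values do not rank the pairs. Short motifs were searched on both strands. The motif bound by ZFX, AGGCCTAG, was in 0.968% of 32851 windows of this length. Its core, AGGCCT, which lies within it, was in 10.3%. The GC box GGGCGG was in 35.7% and the CCAAT box in 37.4%. TGACGTCA was in 1.79%, GCATGCGC in 2.71%, ACTACAAT in 0.737% and AAGATGGCG in 1.40% of the windows. None of these letters other than GGGCGG and CCAAT occurred in the windows of the family.

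The libraries held 33338160 and 37555727 counts over the listed genes for BMH21 and 41548269 and 30964370 for mock. Every listed gene had counts in at least 3 of the 4 libraries, so genes silent in both mock libraries are not in the table. Values are given in CPM, which are counts scaled to a common library size, here after TMM scaling. Pachytene markers were abundant, with 12 markers summing to 8020 and 8158 CPM in BMH21 and 7876 and 8022 CPM in mock. Ldhc alone stood at 4610 CPM in BMH21 and 4375 CPM in mock. The called markers, named after their values were seen, moved in both directions. On the log2 scale Ldhc (0.08), Sycp1 (0.27) and Sycp3 (0.46) rose, which is 3 of 12. Hspa2 (-0.07), Piwil1 (-0.16), Mybl1 (-0.11), Ccna1 (-0.15) and Meiob (-0.63) fell, which is 5 of 12 (edgeR). Beside each count of markers here stand 16.5% of all tested genes called higher and 12.5% called lower. Among the 12 pachytene markers the linker histone gene H1f6 was near 0, at 0.256 CPM in BMH21 and 0.455 CPM in mock. Markers of Sertoli, Leydig and macrophage cells, and of peritubular and vessel cells, summed to at most 9.54 CPM per list in any library, with 1 marker at 0 in some libraries, and 8 spermatid markers to between 236 and 247 CPM. Star, a Leydig marker named after its value was seen, fell by 0.50 on the log2 scale. Spermatogonium markers summed to 50.3 and 51.0 CPM in BMH21 and to 57.1 CPM in each mock library; Kit (-0.58) and Zbtb16 (-0.95), also named after their values were seen, fell, and 0 of 6 rose. Markers of preleptotene to zygotene cells, almost all of them Meioc counts, summed to 599 and 626 CPM in BMH21 and to 603 and 600.2 CPM in mock, and none of 4 was called (edgeR; the smallest unadjusted p was 0.0215, in Dmc1). The part of these cells in the levels of the family was not tested. A bulk library cannot tell more cells with a transcript from more RNA per cell.

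The comparison of BMH21 with mock asked whether transcripts of the family, low at pachytene in mock cells, differed after the drug. All 4 genes rose, between 68.1-fold and 137-fold (edgeR quasi-likelihood F test at a Benjamini-Hochberg threshold of 0.05 across the whole table). Over the 13793 tested genes 29.1% were called in either direction, 16.5% as higher and 12.5% as lower, and on the X chromosome 73.2% of 343 tested genes were called higher. On the Y chromosome 90% of 10 tested genes were called higher, Zfy1 and Zfy2 among them. Some X- and Y-linked genes passed the filter on low counts only through their BMH21 counts. For those genes being tested nearly fixed a call as higher, and shares without them were not computed. Of all calls 56.9% were higher, and 42.1% under upper quartile scaling. The family as a whole took 21000 and 23907 counts in the BMH21 libraries, against 310 and 255 in the mock libraries. This was 0.0633% ± 0.00047 of all counts in BMH21 and 0.000785% ± 5.5e-05 in mock (SD, n = 2 each).

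**Figure D2:**
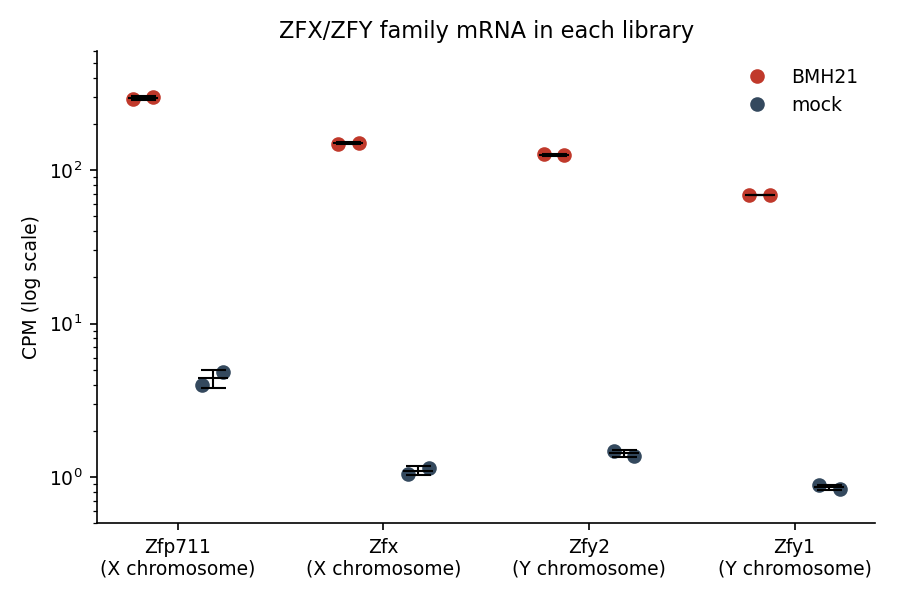
Level of each gene (y axis, CPM, log scale) in each library, BMH21 in red and mock in dark blue; horizontal bars are the mean and SD of 2 libraries. Every BMH21 point of a gene lies at least 68.7 CPM and every mock point at most 4.80 CPM.

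Zfx (ENSMUSG00000079509.11, chromosome X, 94074631 to 94123702 on the minus strand of GRCm38) had 4915 and 5606 counts in BMH21 libraries and 44 and 36 counts in mock libraries. In CPM these were 148 and 151 in BMH21, against 1.05 and 1.15 in mock. Both BMH21 libraries thus lay far above both mock libraries, and libraries of a group differed little. The log2 fold change was 7.09 ± 0.17 (SE), a 137-fold rise with a 95% interval of 109 to 172 (edgeR adjusted p = 6.83e-61). Zfx rose more than most X-linked genes, ranking 20 of 343 tested by fold change.

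Zfp711 (ENSMUSG00000025529.15, chromosome X, 112600526 to 112635070 on the plus strand) was the most abundant member in both groups. It had 9615 and 11129 counts in BMH21 and 167 and 150 counts in mock, which is 290.3 and 300.4 CPM in BMH21 against 3.98 and 4.80 CPM in mock. The groups did not overlap, and the spread within mock was the widest of the family. Its log2 fold change of 6.09 ± 0.09 (SE), 68.1-fold with a 95% interval of 60.3 to 76.8, was the smallest of the 4 (edgeR adjusted p = 9.96e-68). It ranked 65 of 343 X-linked genes by fold change.

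Zfy2 (ENSMUSG00000000103.13, chromosome Y, 2106015 to 2170409 on the minus strand) had 4194 and 4621 counts in BMH21 and 62 and 43 counts in mock. It stood at 127 and 125 CPM in BMH21, against 1.48 and 1.38 CPM in mock. Again no BMH21 library came near a mock library. The log2 fold change was 6.45 ± 0.15 (SE), or 87.4-fold with a 95% interval of 71.3 to 107 (edgeR adjusted p = 4.31e-58). Spermatid markers, which would accompany spermatid Zfy2 transcripts, summed to 246 and 247 CPM in BMH21 and to 237 and 236 CPM in mock. None of the 8 markers passed the test (edgeR), against 29.1% of all tested genes called in either direction. The smallest unadjusted p was 0.0452, in Tnp1, and their part in the level of Zfy2 was not tested.

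Zfy1 (ENSMUSG00000053211.11, chromosome Y, 725128 to 797409 on the minus strand) had fewer counts than the other members in every library. It had 2276 and 2551 counts in BMH21 and 37 and 26 counts in mock, or 68.7 and 68.9 CPM in BMH21 against 0.882 and 0.832 CPM in mock. The BMH21 libraries were almost equal and lay well above mock. Its log2 fold change was 6.32 ± 0.19 (SE), 79.6-fold with a 95% interval of 61.2 to 104 (edgeR adjusted p = 2.58e-50).

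Adding the counts of the Y-linked pair gave a value that does not depend on how counted reads were divided between Zfy1 and Zfy2. Reads left out for matching both genes, if any, are missing from the sum as well. Together Zfy1 and Zfy2 stood at 195 and 194 CPM in BMH21, against 2.36 and 2.21 CPM in mock, a log2 fold change of 6.40 ± 0.12 (SE; edgeR adjusted p = 7.23e-65). Within the pair Zfy2 took 64.8% (exact Clopper-Pearson 95% interval 63.6 to 66.0) and 64.4% (63.3 to 65.5) of the counts in BMH21. In mock it took 62.6% (52.3 to 72.1) and 62.3% (49.8 to 73.7). These intervals cover counting error only. The mean share was 2.15 percentage points higher in BMH21, within the counting intervals of the mock libraries, and the exact two-sided permutation p of 0.33 is the smallest that 2 libraries against 2 allow.

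Per kilobase of exon, the order of the genes was Zfp711, Zfy2, Zfy1 and Zfx in every library. On this scale (RPKM, TMM-scaled) Zfp711 was at 52.4 and 54.3 in BMH21 and 0.719 and 0.867 in mock. Zfy2 followed with 40.8 and 40.1 RPKM in BMH21 and 0.476 and 0.443 in mock. Zfy1 had 24.0 RPKM in each BMH21 library and 0.307 and 0.290 in mock, and Zfx 19.1 and 19.5 in BMH21 and 0.135 and 0.149 in mock. No gene overlapped its neighbour in this order in either group. The distance between Zfy1 and Zfx in BMH21 narrowed to 24.0 and 21.4 when the longest coding transcript replaced the union of exons as the length. In BMH21 Zfp711 lay above 92.0% of tested autosomal genes, Zfy2 above 89.1%, Zfy1 above 82.0% and Zfx above 78.5% (RPKM). In mock the same shares were 28.6% for Zfp711, 22.1% for Zfy2, 17.3% for Zfy1 and 9.47% for Zfx.

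**Figure D3:**
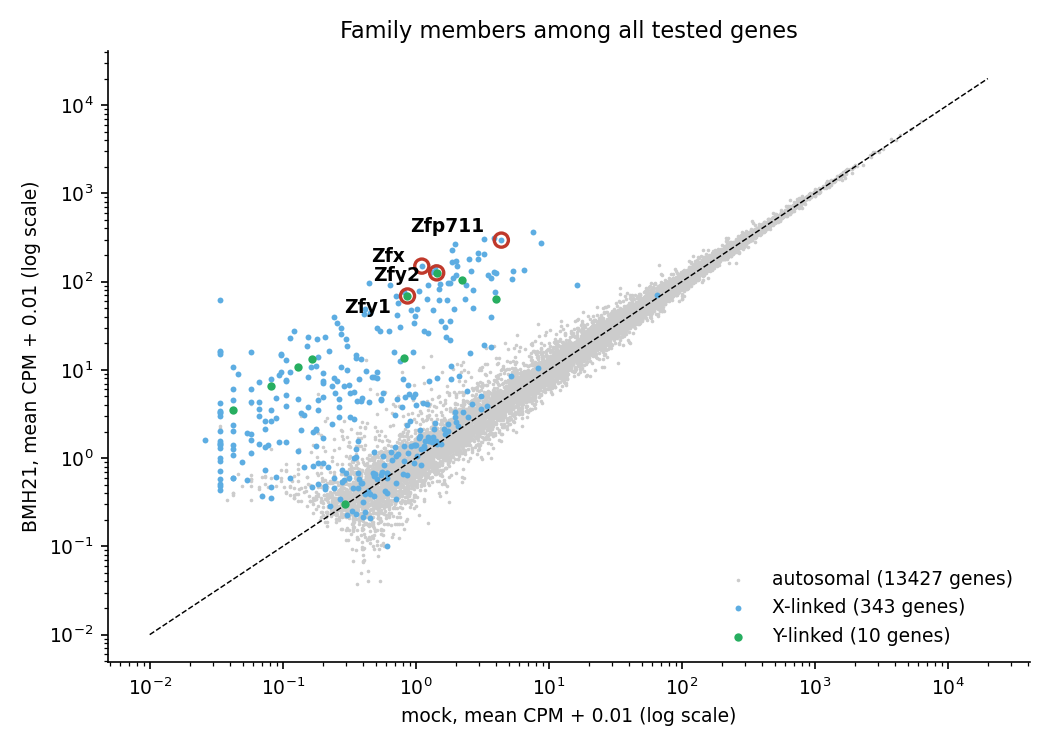
Mean CPM of every tested gene in BMH21 (y axis) against mock (x axis), both plus 0.01 on log scales; grey points are autosomal, blue X-linked and green Y-linked genes, and red circles mark the family. The 4 circled genes lie in the upper part of the X- and Y-linked cloud, at 68.8 to 295 CPM in BMH21 and 0.857 to 4.39 CPM in mock, far above the dashed line of equality.

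The sizes of the rise were compared between members. Among the 6 pairs of members, the log2 fold change of Zfx exceeded that of Zfp711 by 1.01 (95% interval 0.63 to 1.38), that of Zfy1 by 0.78 (0.28 to 1.28) and that of Zfy2 by 0.64 (0.20 to 1.09). Zfp711 lay 0.36 below Zfy2 (interval of the difference -0.70 to -0.02), and this interval included 0 without BMH21 replicate 1 (difference -0.33) or mock replicate 2 (-0.19); without mock replicate 1 the difference was -0.57. Without mock replicate 1 the intervals of Zfx against Zfy1 (0.66, -0.11 to 1.42) and against Zfy2 (0.51, -0.15 to 1.17) also included 0. The interval of Zfx against Zfp711 excluded 0 without any 1 library, with differences of 0.94 to 1.08. For Zfp711 minus Zfy1 the difference was -0.23 (-0.64 to 0.19), and for Zfy1 minus Zfy2 it was -0.13 (-0.62 to 0.35). The intervals come from the standard errors of the fit and are not adjusted for the 6 pairs. Within libraries, Zfp711 was at 1.96 and 1.99 times the CPM of Zfx in BMH21, against 3.80 and 4.17 times in mock. The summed Y-linked pair was at 3.38 and 3.29 times the RPKM of Zfx in BMH21 and at 5.79 and 4.93 times in mock.

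The family took a larger part of the counts of its chromosomes in BMH21 than in mock. This follows from fold changes above those of the summed X- or Y-linked counts, and is no separate result. Zfx made up 1.68% of X-linked counts in BMH21 and 0.277% ± 0.015 in mock, and Zfp711 3.31% ± 0.036 in BMH21 and 1.10% ± 0.13 in mock (SD, n = 2 each). Zfy1 and Zfy2 together made up 47.7% and 46.2% of the Y-linked counts in BMH21 libraries, against 17.8% and 16.2% in mock libraries. The groups did not overlap in any of these shares, and the exact permutation p was 0.33 for each, the smallest possible here. By RPKM in BMH21 Zfy2 was first and Zfy1 second of the 10 tested Y-linked genes, and in mock they ranked 2 and 4. Zfp711 ranked 10 of 343 X-linked genes in BMH21 and 46 in mock, and Zfx ranked 44 in BMH21 and 181 in mock.

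The other single-copy Y-linked genes and their X-linked partners, ancient pairs like Zfx and Zfy, moved in the same direction. Leaving out the family, all 5 tested Y-linked genes of the list rose, with a median log2 fold change of 5.57. All 6 tested X-linked partners also rose, with a median of 4.60. Of these, Uty, Ddx3y, Ddx3x, Kdm6a and Eif2s3x passed the filter on low counts only through their BMH21 counts. For them, being tested nearly fixed a call as higher. With Zfy1 and Zfy2 the Y-linked list had 7 of 7 higher (median 6.28), and with Zfx the X-linked list had 7 of 7 (median 4.97). These counts stand beside the 90% of Y-linked and 73.2% of X-linked genes called higher. Both shares also include genes that passed the filter only through their BMH21 counts. The 10 tested Y-linked genes include the 7 of the list, so the 90% is no separate measure for the Y-linked list. Kdm5d, Sry and Sox3 were not analysed here. Usp9y, a deubiquitinase gene, was at 104 CPM in BMH21 and 2.20 CPM in mock, and its log2 fold change of 5.57 ± 0.13 (SE) was below that of Zfy1 and Zfy2. Eif2s3y, a translation initiation factor gene required in spermatogonia, was at 64.1 CPM in BMH21 and 4.02 CPM in mock (3.98 ± 0.11). The RNA helicase gene Ddx3y (6.45 ± 0.46), the ubiquitin-activating enzyme gene Uba1y (4.03 ± 0.23) and the histone demethylase-related Uty (6.28 ± 0.65) rose to 13.4, 13.4 and 6.60 CPM in BMH21, against 0.156, 0.813 and 0.0715 CPM in mock. Uty had 0 counts in mock replicate 2, and its log2 fold change read 10.80 without mock replicate 1 and 5.49 without mock replicate 2.

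Among the X-linked partners, Zfx had the largest log2 fold change. Differences within the pairs other than Zfx and Zfy were not tested. Usp9x, at 275 CPM in BMH21 and 8.75 CPM in mock, had a log2 fold change of 4.99 ± 0.07 (SE). The histone demethylase gene Kdm5c was at 125 CPM in BMH21 and 4.02 CPM in mock (4.97 ± 0.10). Ddx3x (6.20 ± 0.33) and Kdm6a (3.54 ± 0.47) reached 22.2 and 2.91 CPM in BMH21, against 0.287 and 0.255 CPM in mock; Ddx3x read 6.83 without mock replicate 1. The smallest change was in Uba1, at 8.43 CPM in BMH21 and 5.16 CPM in mock (0.71 ± 0.16; edgeR adjusted p = 3.18e-04). Eif2s3x had 40 counts in BMH21 and 2 in mock, a ratio of 20.9 with an exact 95% counting interval of 5.41 to 178; its log2 fold change of 4.23 read 7.28 without mock replicate 1, since mock replicate 2 had 0 counts, and 3.49 without mock replicate 2.

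**Figure D4:**
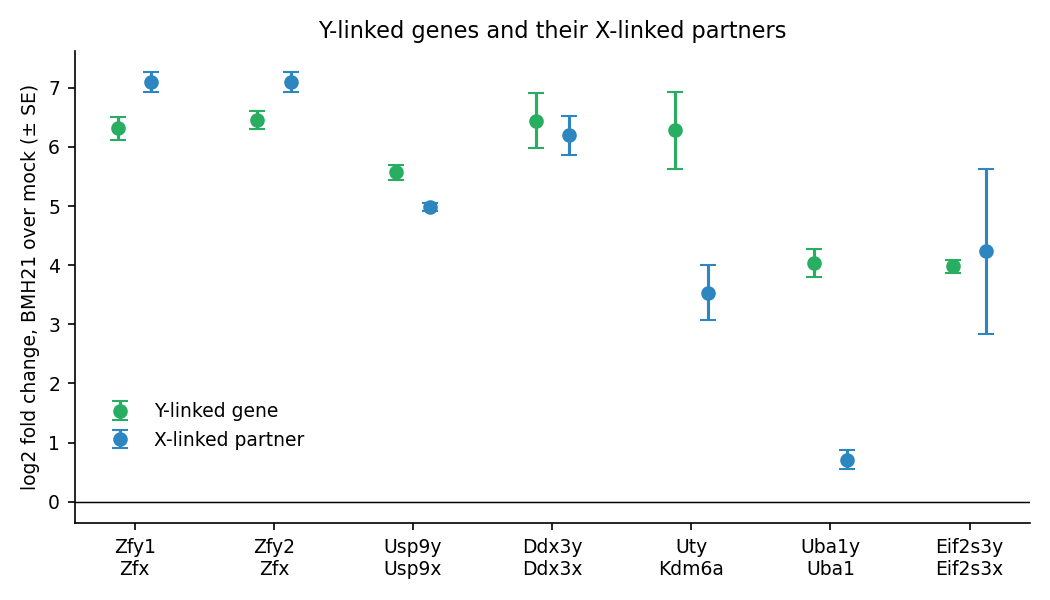
Log2 fold change of BMH21 over mock (y axis, points with SE bars) for 7 pairings of a Y-linked gene (green) with its X-linked partner (blue), Zfx being shown beside both Zfy1 and Zfy2. Zfx at 7.09 lies above Zfy1 at 6.32 and Zfy2 at 6.45, while Uba1 at 0.71 lies far below Uba1y at 4.03.

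The nearest tested genes on each side of the members were examined by position, and some lay far away. Gaps from Zfx ran from 65005 bases (Eif2s3x) to 1.58e+06 bases (Gm5941). Of the 6 tested genes nearest Zfx, 5 rose and 0 fell, with log2 fold changes of 0.21 to 4.23 and at most 15.9 CPM in BMH21. Over all X-linked genes tested, 73.2% were called higher and 0.292% lower, so this count is near the background. The 5 that rose were Mageb18, Pdk3, Eif2s3x, Klhl15 and Fam90a1b, and Gm5941 was not called (0.21). Mageb18 and Eif2s3x passed the filter on low counts only through their BMH21 counts. Fam90a1b was at 15.9 CPM in BMH21 and 0.949 CPM in mock (4.09 ± 0.22, SE), and Klhl15, a gene for a ubiquitin ligase adaptor, at 4.01 CPM in BMH21 and 0.997 CPM in mock (2.01 ± 0.29). Pdk3, which encodes a pyruvate dehydrogenase kinase, was not called in DESeq2 (0.61), with upper quartile scaling (0.56) or with any 1 library left out (0.60 to 0.62). Mageb18 had 34 counts in BMH21 and 2 in mock, a ratio of 17.7 with an exact 95% counting interval of 4.55 to 152, and was not called in DESeq2 (4.19) or without mock replicate 2 (3.24). Its log2 fold change of 3.99 read 7.03 without mock replicate 1.

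The tested genes nearest Zfp711 lay between 193747 bases (Satl1) and 7.68e+06 bases (H2ab3) from it. Of these 6 genes 3 rose and 0 fell, against the same 73.2% and 0.292% of X-linked genes. The highest of them reached 8.24 CPM in BMH21. 4933403O08Rik rose by 3.38 on the log2 scale, the mitochondrial cristae gene Apool by 4.17 and the histone variant gene H2ab3 by 4.11. Of these, 4933403O08Rik and Apool passed the filter on low counts only through their BMH21 counts. Apool had 0 counts in mock replicate 1; its call was lost in DESeq2 (4.05), and it read 9.29 without mock replicate 2 and 3.01 without mock replicate 1. Satl1 (0.16), Ube2dnl2 (-0.80) and Cpxcr1 (0.31) were not called. The tested genes beside Zfy1 were Uba1y, Eif2s3y and Uty on its higher side, none being tested on the other, and Uty, Ddx3y and Usp9y precede Zfy2. The next tested gene beyond Zfy2, Gm21095, starts at position 84097279 and had a log2 fold change of 0.01.

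The X chromosome holds other genes named for zinc fingers. Of 6 tested X-linked genes with zinc-finger symbols 4 were called higher, Zfx and Zfp711 among them, which leaves 2 of 4 without the family. Both counts stand beside the 73.2% of X-linked genes called higher. The 2 called genes outside the family, Zfp280c and Zxdb, passed the filter on low counts only through their BMH21 counts. Zfp280c, at 15.8 CPM in BMH21 and 0.0477 CPM in mock, had 0 counts in mock replicate 2. Its log2 fold change was 8.09 ± 0.74 (SE) and read 12.07 without mock replicate 1 and 7.33 without mock replicate 2. Zxdb had 164 counts in BMH21 and 2 in mock, a ratio of 85.5 with an exact 95% counting interval of 23.3 to 712. Its log2 fold change of 6.24 read 9.46 without mock replicate 2 and 5.12 without mock replicate 1. Zcchc13 (0.49) and Zfp185 (-0.12) were not called. Zxdb, Zcchc13 and Zfp185, the rest of this small set, were named after their values were seen.

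Likeness of pattern was measured as the Euclidean distance between log2(CPM + 0.5) values over the 4 libraries. Other members of the family, and predicted genes with Gm or Rik symbols, were left out of this ranking. Among the remaining genes, the 3 nearest to Zfx were Usp11, a deubiquitinase gene, Maoa, which encodes a monoamine oxidase, and Tm9sf5. Their distances were 0.40, 0.42 and 0.59. The nearest to Zfy2 were the same genes in another order, Maoa at 0.19, Tm9sf5 at 0.29 and Usp11 at 0.31. Maoa was at 127 CPM in BMH21 and 1.32 CPM in mock. Zfp711 was nearest to the cilia and flagella gene Cfap47 (0.34), Dcaf8l (0.61) and Hcfc1 (0.92), which encodes a transcriptional coregulator. Zfy1 was nearest to Ofd1, a centriole and cilium gene (0.31), Pramel3a (0.50) and the testis TFIID subunit gene Taf7l (0.51). All 9 distinct genes were X-linked, in a ranking from which the Y-linked members Zfy1 and Zfy2 had been left out. Rises of this size were found mostly on the X chromosome. By fold change Zfx ranked 20 among X-linked genes and 20 among all tested genes, and Zfp711 ranked 65 and 74. The X linkage of the nearest genes therefore adds little to the size of the rise.

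Genes that act in silencing the sex chromosomes at pachytene were examined because the family lies on those chromosomes. Among 22 tested autosomal members of the list, 4 rose and 6 fell, which is 18.2% and 27.3%, against 15.1% and 12.8% of all autosomal genes tested. The median log2 fold change was -0.00, against -0.01 over autosomal genes. Topbp1, which activates the kinase ATR, was at 89.4 and 86.3 CPM in BMH21, against 58.6 and 55.3 CPM in mock (log2 fold change 0.62 ± 0.05, SE; edgeR adjusted p = 2.47e-15). Hormad1, a protein of unsynapsed chromosome axes, rose by 0.33 ± 0.04 and the checkpoint clamp loader gene Rad17 by 0.35 ± 0.05. Atf7ip, a cofactor of the methyltransferase SETDB1, was at 103 and 109 CPM in BMH21, against 146 and 142 CPM in mock (-0.44 ± 0.04; edgeR adjusted p = 6.73e-14). Mdc1, which spreads the DNA damage mark over the sex chromosomes, fell by 0.17 ± 0.03. Atr itself was at 949 and 951 CPM in BMH21 and at 939 and 915 CPM in mock (0.03 ± 0.03; edgeR adjusted p = 0.255).

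The rest of the calls in this list, named after their values were seen, were smaller or rested on fewer counts. Rnf8 rose by 0.28, and lost its call in DESeq2 (0.27) and without BMH21 replicate 1 (0.27) or mock replicate 1 (0.15). Setdb1 (-0.19) and Rad9a (-0.67) fell. Fancd2 (-0.21) and Brca1 (-0.54) fell, and without BMH21 replicate 1 neither was called, at -0.12 and -0.41. Exons of Rnf8 overlap another gene on the same strand. Exons of Atr, Diablo, Atf7ip, Rad17, Rad9a, Setdb1, Fancd2, Casp9 and Uba1y overlap genes on the opposite strand, and those of Atr and Diablo also genes on their own strand. The X-linked member Scml2, a germline Polycomb gene, was at 171 CPM in BMH21 and 1.99 CPM in mock (6.45 ± 0.13).

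Zfy genes at pachytene are known for spermatocyte death, and genes of cell death were therefore read beside them. Of 25 tested members, all autosomal, 5 rose (20%) and 2 fell (8%), with a median log2 fold change of 0.06; 4 further members were listed but too low to test. These shares lay near the 15.1% and 12.8% of autosomal genes called. The BH3-only gene Pmaip1 was at 17.7 and 18.0 CPM in BMH21, against 6.10 and 4.86 CPM in mock (log2 fold change 1.69 ± 0.13, SE; edgeR adjusted p = 3.40e-17). The initiator caspase gene Casp2 was at 10.4 and 9.91 CPM in BMH21, against 4.39 and 4.48 CPM in mock (1.20 ± 0.16). Cycs, the somatic cytochrome c gene, was at 2.35 and 2.19 CPM in BMH21, against 0.334 and 0.640 CPM in mock (2.25 ± 0.42), and the gene has many processed copies in the genome, so its counts are uncertain. The testis form Cyct, named after its value was seen, was at 46.6 CPM in BMH21 and 48.3 CPM in mock (-0.05), and was not called. Casp9, named after its value was seen, rose by 0.38.

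Other members of the list moved in either direction. Bcl2l1, which encodes the survival protein BCL-XL, was at 187 CPM in each BMH21 library, against 154 and 165 CPM in mock (0.23 ± 0.04, SE; edgeR adjusted p = 5.59e-07). Trp63, a p53-family gene that guards oocytes, was at 7.12 and 10.6 CPM in BMH21, against 19.9 and 19.0 CPM in mock (-1.13 ± 0.13). Trp53 itself was at 3.23 and 2.48 CPM in BMH21, against 4.50 and 5.34 CPM in mock (-0.78 ± 0.22), and lost its call without BMH21 replicate 2 (-0.61) or mock replicate 2 (-0.66). Diablo, with the highest CPM of the list, was at 463 CPM in BMH21 and 466 CPM in mock and was not called.

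**Figure D5:**
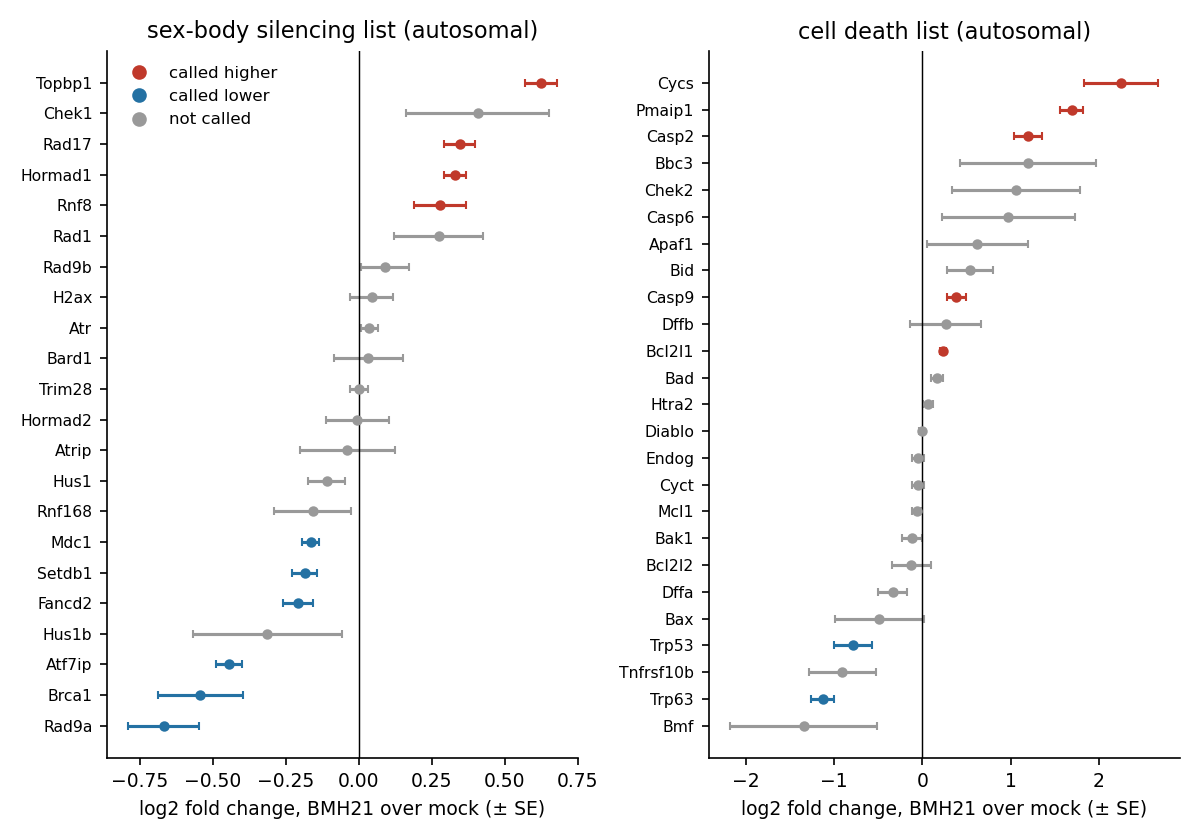
Log2 fold change of BMH21 over mock (x axis, points with SE bars) for autosomal genes of sex-body silencing (left) and for genes of cell death (right), red where called higher, blue where called lower and grey where not called. The silencing genes spread from -0.67 to 0.62 around 0, and the cell death genes from -1.35 to 2.25.

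Genes with the ZFX-bound motif in the window around their start were described as well. Of 119 tested autosomal genes whose window held AGGCCTAG, 22 were called higher (18.5%) and 16 lower (13.4%). Among all 10307 tested autosomal genes with a window the shares were 15.6% and 13.4%. Their median log2 fold change was 0.04, against -0.01 over all of these genes. The authors' deposited table gave log2 fold changes of 7.10 ± 0.17 for Zfx, 6.09 ± 0.09 for Zfp711, 6.45 ± 0.16 for Zfy2 and 6.32 ± 0.20 for Zfy1 (SE).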

How the data were processed

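TRIzol-extracted RNA was made into libraries with a kit for stranded mRNA (labels' protocols). The submitters' processing notes name the build mm10 and the tools featureCounts, STAR, fastp, DESeq2 and SAMtools, with no version, order or setting. The authors deposited raw read counts per gene, from which all tests start. The size-factor-normalized values (signal), the log2 fold changes with SE, the Wald score and the p-values in the table are the authors' own, per the file headers. A rerun of DESeq2 1.42.0 differed from the deposited log2 fold changes by at most 2.83e-05. The positions in the table matched those of GENCODE M21 (GRCm38) for 369 of 15670 genes found by identifier, so coordinates and exon lengths are those of GENCODE M21.

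Counts were tested in R 4.3.3 with edgeR 4.0.16: filterByExpr (minimum count 10), TMM, quasi-likelihood F test with group alone, Benjamini-Hochberg adjusted p under 0.05. Standard errors are Wald errors from the fitted weights, scaled by the quasi-dispersion where it exceeds 1, and 95% intervals assume normal errors. The biological variation between libraries common to all genes was 4.09% (edgeR), and the spread between replicates exceeded counting noise (ratio of chi-square to its degrees of freedom 3.71 in BMH21 and 3.21 in mock). Identities and shared stretches were computed from GENCODE M21 transcripts with Biopython 1.88.

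Genes were named by rule: the 4 members, all tested Y-linked single-copy genes and X-linked partners, 6 members with the smallest p and the 2 most abundant of the other lists, 3 tested neighbours on each side, the 3 nearest patterns per member and the 3 most abundant X-linked zinc-finger genes. The members and lists were chosen with earlier results of these data known. Alternatives were other scalings and filters, DESeq2, a replicate block and leaving out each library.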

Additional observations from a re-analysis of the deposited data

How the results depend on the processing

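All 4 members kept their direction and their call under every alternative in which they were tested: the log2 fold change ran from 7.02 to 7.15 for Zfx, 5.94 to 6.21 for Zfp711, 6.27 to 6.37 for Zfy1, 6.41 to 6.51 for Zfy2 and 6.36 to 6.46 for the summed Y-linked pair. Requiring 1 CPM in all 4 libraries removed Zfy1, and left 3 called members of the Y-linked list and 4 of the X-linked partners. The others lay under 1 CPM in mock libraries and were not tested. The share of Zfy2 differed by 1.96 to 2.35 percentage points without 1 library. Leaving out 1 library gave 1 to 2 cell death genes called lower. The counts of genes called ran from 1779 to 2341 higher and 1174 to 2480 lower; 2480 lower came from upper quartile scaling, which shifted all values by a median of -0.05. DESeq2 called 1779 higher and 1174 lower; the cause was not tested.

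Some genes that were not called changed sign. Under upper quartile scaling Atr read -0.0107 and Gm21095 -0.0333. Without 1 library the ranges were -0.0233 to 0.0037 for Diablo, -0.0072 to 0.34 for Satl1, -2.84 to 0.0482 for Ube2dnl2, -0.28 to 0.72 for Cpxcr1, -0.39 to 0.34 for Gm21095 and -0.91 to 0.41 for Zfp185. With the replicate number as a block Zfx read 7.09, Zfp711 6.08, Zfy1 6.32 and Zfy2 6.45, and 2189 genes were called higher and 1595 lower. The labels do not say that the numbers pair samples, and same-numbered libraries deviated together with a correlation of 0.00559 over 7560 genes. Mock libraries held 26 to 167 counts of a member, which limits the precision of each fold change.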
